A study of Mus musculus with 90 samples.

Results

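The glycolysis and hypoxia-response genes are a list of 33 genes picked by name from the 24543 genes of the table of gene levels. They cover glucose uptake, the enzymes from hexokinase to lactate dehydrogenase, lactate export, and the hypoxia-inducible factor Hif1a with its hydroxylases and known target genes. The choice used names and not measured values, and all 33 were found in the table. Of these, 32 passed the low-level filter in the Irf8-/- and Irf8+/+ cultures (Egln3 did not), 32 in the transduced osteoclast cultures (Eno2 did not), and all 33 in the macrophages.

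Glycolysis turns glucose into pyruvate in the cytosol and yields ATP without oxygen, and lactate dehydrogenase regenerates the cofactor that lets it run on. Hif1a encodes the oxygen-sensitive subunit of a transcription factor: with oxygen present, the prolyl hydroxylases of the Egln family mark it for degradation, and at low oxygen it binds short DNA elements beside many glycolytic genes and raises their transcription. Macrophages activated with bacterial lipopolysaccharide (LPS) are known for a shift to aerobic glycolysis in which Hif1a takes part, while osteoclasts, the bone-resorbing cells formed from macrophage precursors, are known for a high demand for energy. Most of Hif1a's regulation is on its protein, which was not measured here.

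Total RNA was sequenced from cultures of mouse bone marrow-derived macrophages (BMMs). In the first experiment, BMMs of Irf8-/- mice (KO) and of Irf8+/+ mice (WT) were sampled at day 0 with MCSF alone and at days 4 and 8 with MCSF plus RANKL, the cytokine that turns them into osteoclasts. In the second, BMMs of Irf8-/- mice were transduced with hIRF8379-389, hIRF8G388S or hIRF8WT and sampled at the same 3 days, beside cultures labelled mock, so that by the protocol all transduced cells came from Irf8-/- mice. The labels do not say what 379-389 stands for or what mock received. In the third, macrophages with the same 4 genotype labels were left untreated, given interferon gamma (IFNg), or given IFNg plus LPS for 1, 4 or 8 h. Groups held 2 libraries (24 groups) or 3 libraries (14 groups). The labels do not say whether replicates came from separate mice or cultures, so a p-value here speaks of library-to-library spread, which may be technical.

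The depth ran from 0.218 to 122 M alignments, with a median of 41.1 and a second lowest of 15.6. Irf8 itself stood at 32.5 to 34.2 RPKM in KO libraries of day 0 and at 69.1 to 74.0 RPKM in WT libraries, so that reads on the gene remain in the KO. At day 4 it stood at 5.92 to 8.97 RPKM in KO and 17.1 to 27.1 RPKM in WT, and at day 8 at 6.22 to 7.08 RPKM in KO and 7.43 to 12 RPKM in WT. All 8 osteoclast markers reached 1 RPKM in every group of days 4 and 8. The library at 0.218 M alignments, labelled untreated hIRF8WT macrophages, replicate 1, went against its label: its profile correlated at 0.909 to 0.916 with IFNg libraries and at 0.842 to 0.891 with the other untreated ones, and results that rest on it are given with and without it. By the column-name prefixes, sequencing runs were partly shared out by condition, and the comparisons this touches are named where they occur.

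The promoters of 5 members whose levels return below are shown because they differ in the core letters of the element that hypoxia-inducible factors bind. They were chosen after the values were seen. Each is the RefSeq sequence on GRCm38.p6 from 250 bases before to 50 bases after the gene's start, 5′ to 3′ along the gene. Capitals mark ACGTG and GCGTG, read on both strands, so that their reverse complements CACGT and CACGC are in capitals as well. All 5 genes are protein-coding, and the windows cover the upstream flank and the first bases of the first exon.
Bnip3, chr7:138909457-138909756, minus strand: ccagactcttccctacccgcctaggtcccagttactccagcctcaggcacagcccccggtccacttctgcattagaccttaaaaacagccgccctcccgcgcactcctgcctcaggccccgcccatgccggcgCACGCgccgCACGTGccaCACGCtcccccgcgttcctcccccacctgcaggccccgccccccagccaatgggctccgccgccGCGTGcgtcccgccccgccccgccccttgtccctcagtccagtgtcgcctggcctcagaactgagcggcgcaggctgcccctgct
Egln3, chr12:54203825-54204124, minus strand: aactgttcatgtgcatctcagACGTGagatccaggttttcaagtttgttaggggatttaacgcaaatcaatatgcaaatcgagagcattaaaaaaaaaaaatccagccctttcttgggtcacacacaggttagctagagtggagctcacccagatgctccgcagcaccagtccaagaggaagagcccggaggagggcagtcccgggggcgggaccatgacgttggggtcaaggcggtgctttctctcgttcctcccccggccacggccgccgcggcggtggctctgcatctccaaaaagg
Slc2a1, chr4:119108495-119108794, plus strand: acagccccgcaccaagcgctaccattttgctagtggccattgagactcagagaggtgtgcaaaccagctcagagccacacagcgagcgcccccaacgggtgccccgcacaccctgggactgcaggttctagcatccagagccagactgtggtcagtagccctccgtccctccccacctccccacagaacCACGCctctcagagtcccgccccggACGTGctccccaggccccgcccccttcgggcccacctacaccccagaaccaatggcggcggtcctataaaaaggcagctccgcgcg
Pgk1, chrX:106186850-106187149, plus strand: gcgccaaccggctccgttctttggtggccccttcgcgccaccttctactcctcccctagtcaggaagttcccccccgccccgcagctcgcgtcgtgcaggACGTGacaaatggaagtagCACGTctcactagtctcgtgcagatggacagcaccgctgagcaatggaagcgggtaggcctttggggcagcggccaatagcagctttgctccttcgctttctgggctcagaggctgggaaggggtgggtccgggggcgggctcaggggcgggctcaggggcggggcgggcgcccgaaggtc
Slc2a6, chr2:27027949-27028248, minus strand: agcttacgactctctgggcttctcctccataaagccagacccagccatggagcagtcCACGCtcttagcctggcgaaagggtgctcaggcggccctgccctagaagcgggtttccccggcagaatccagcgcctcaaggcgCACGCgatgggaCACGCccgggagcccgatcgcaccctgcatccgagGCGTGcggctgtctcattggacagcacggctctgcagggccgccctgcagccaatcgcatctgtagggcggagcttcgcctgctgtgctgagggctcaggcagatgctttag

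The Bnip3 window held 2 ACGTG and 3 GCGTG, that of Pgk1 2 ACGTG and no GCGTG, and that of Slc2a1 1 of each. That of Egln3 held 1 ACGTG, while that of Slc2a6 held no ACGTG and 4 GCGTG. A palindrome CACGTG counts on both strands, as in Bnip3. Promoters were listed for 31 of the 33 genes (Ero1l under the name Ero1a), with Ndrg1 and Slc2a3 not matched. Of these 31, 28 (90.3%) held at least 1 of the cores, against 67.6% of 8751 genes tested in the macrophages and 46.7% of 27025 genes in the promoter table. ACGTG, with or without GCGTG, was in 74.2% of the members and 29.9% of the genes tested in macrophages. GCGTG, with or without ACGTG, was in 64.5% and 55.9%. A gene was counted where any of its listed promoters held the core. Counted by promoter, 80% of 45 windows of the members held at least 1 of the cores, against 43.8% of all 32851. The list was picked to hold known Hif1a targets, so a higher share among its members follows in part from that choice. A match describes letters in a window and is not a measured binding site.

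All levels are RPKM, which divides the reads by gene length and by the library's M alignments, so they can be set side by side between genes. Gapdh, the dehydrogenase of the middle of glycolysis and a common reference gene, was the highest of the members in 36 of 38 groups and Aldoa, the main aldolase, in the other 2. For 6 members the mean was above 100 RPKM in every group. Another 6 were under 1 RPKM in at least 1 group: Egln3 in 32 groups, Eno2 in 29, Slc2a3 in 16, P4ha2 in 15, Aldoc in 8 and Pfkfb3 in 1.

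The members that varied most over the groups were not the 6 that stayed above 100 RPKM in every group. Slc2a6, a hexose transporter of internal membranes, ran from 2.25 to 654 RPKM (7.66 on the log2 scale). Pfkfb3, which makes the sugar that activates phosphofructokinase, ran from 0.931 to 308 RPKM (7.32). Hk3, a hexokinase, ran from 11.3 to 406 RPKM (5.05), and Bnip3, which marks mitochondria for removal, from 7.76 to 279 RPKM (5.0). Aldoa, at 403 to 1050 RPKM, had the narrowest range (1.38 on the log2 scale), followed by Pkm, the pyruvate kinase, at 411 to 1320 RPKM. The highest group of 17 members was one at 8 h of LPS. The lowest group of Gapdh (670 RPKM), Pkm (411 RPKM), Ldha (115 RPKM), Pgk1 (107 RPKM), Tpi1 (94.4 RPKM) and Pfkp (8.99 RPKM) was WT BMMs at day 0.

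**Figure D1:**
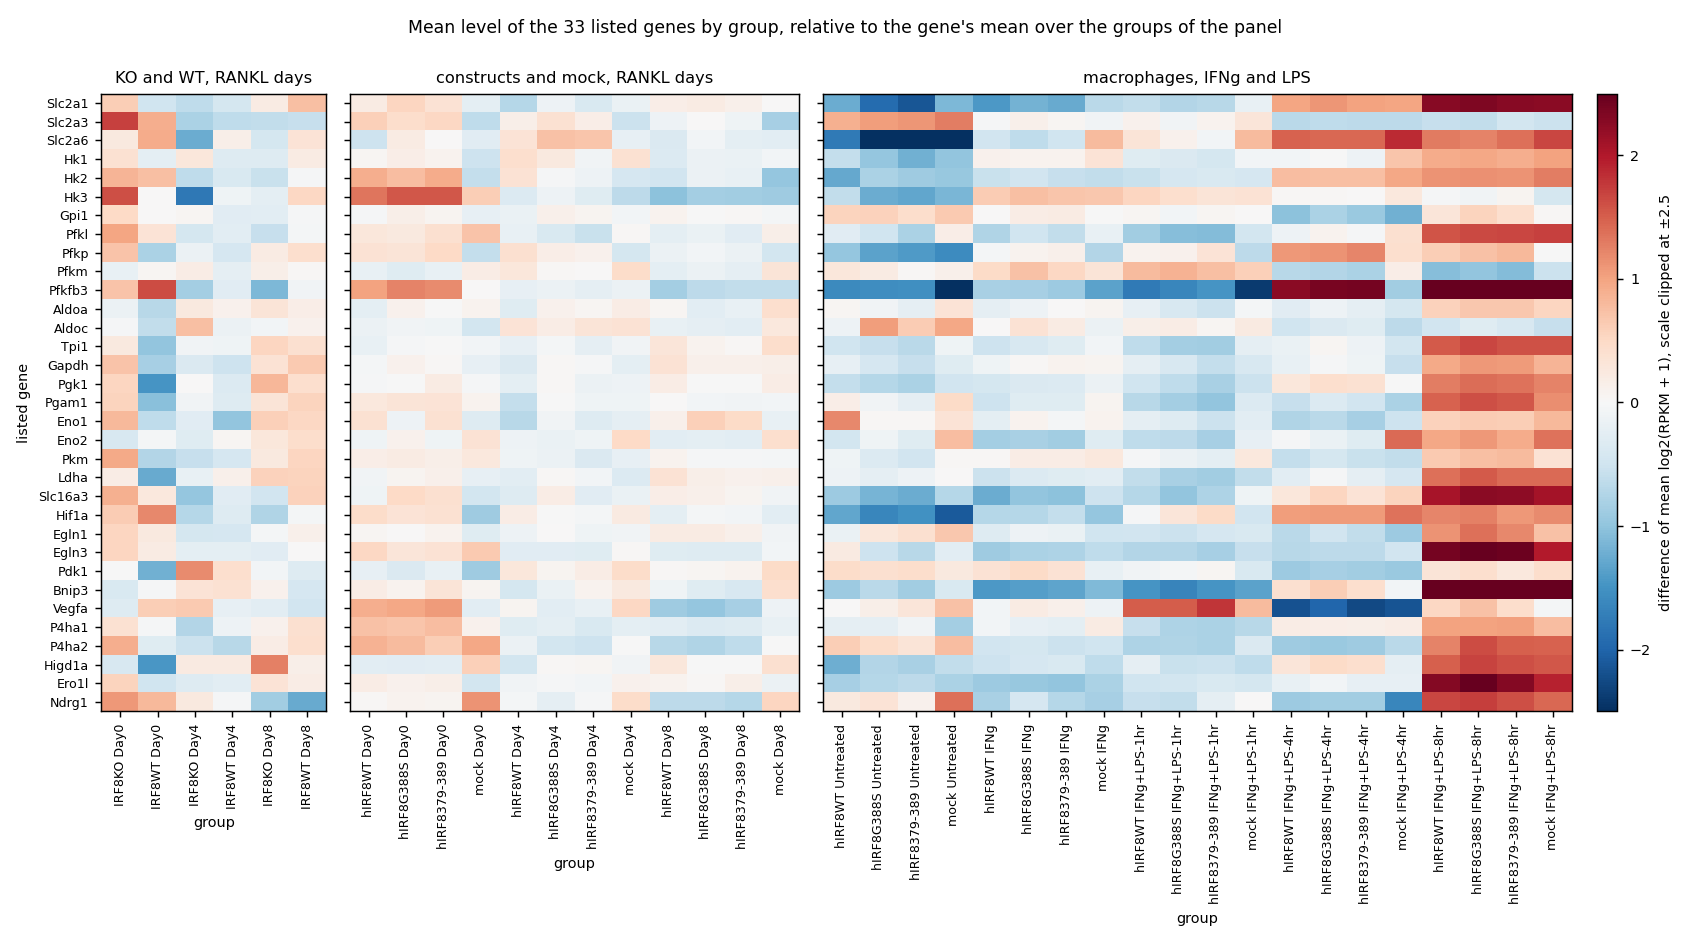
Mean log2(RPKM + 1) of each of the 33 genes (rows) in each of the 38 groups (columns), as the difference from the gene's own mean over the groups of its panel, with the colour scale clipped at ±2.5. Most rows are darkest red in the 4 macrophage groups at 8 h of LPS. In the left panel the rows of Tpi1, Gapdh, Pgk1, Pgam1, Pkm and Ldha are bluest in WT at day 0. The red Eno1 cell of untreated hIRF8WT macrophages rests on the shallow library at 172 RPKM, with 48.7 RPKM in its partner.

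Before RANKL, KO BMMs held more transcript of nearly every glycolytic enzyme than WT BMMs. From glucose entry to lactate, at least 1 gene of every step was higher in KO (not so for 3 steps under another scaling, given below), Pgk1 by 4.06-fold on the log2(RPKM + 1) scale, while Pfkfb3 and Vegfa, the vascular growth factor, were lower. Of 32 members tested, 22 were higher and 2 lower in KO at day 0, where 40.2% of all 11530 genes tested passed (26.5% higher and 13.7% lower). The median log2 fold change was 0.63 over the members and 0.12 over all genes. Summed RPKM of the 33 genes was 6213 to 6399 in KO and 2557 to 2623 in WT libraries. In bulk RNA, fewer cells of a type and less RNA per cell cannot be told apart.

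The first steps set the pattern. Slc2a1, the main basal glucose transporter, had 32.4, 34.5 and 32.6 RPKM in KO against 15.5, 13.9 and 15 RPKM in WT, a log2 fold change of 1.11 with a standard error (SE) of 0.13 (limma, Benjamini-Hochberg adjusted p = 5.92e-06). Hk3, the hexokinase of myeloid cells, had 121, 129 and 127 RPKM in KO against 41.2, 40.2 and 40.7 RPKM in WT (log2 fold change 1.60, SE 0.19, adjusted p = 6.78e-06). For both genes every KO library was above every WT library. Hk3 made up 71.8% ± 0.275 of the summed hexokinase RPKM in KO and 53.3% ± 0.768 in WT (SD, n = 3 each). Hk1 rose as well (log2 fold change 0.62, limma adjusted p = 0.0346), and Hk2, the inducible hexokinase, was at a log2 fold change of 0.10 (adjusted p = 0.759). Gpi1, the isomerase after hexokinase, rose by 0.49 on the log2 scale.

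At the committed step, Pfkp rose by 1.51 and Pfkl by 0.64 on the log2 scale, while Pfkm, the form named for muscle, was at -0.25 and did not pass. Pfkfb3 had 5.89, 5.73 and 5.94 RPKM in KO against 12.1, 11.7 and 12.4 RPKM in WT, and fell (log2 fold change -0.93, SE 0.27, limma adjusted p = 0.0117). It moved against the phosphofructokinases that its product activates, with no overlap between the groups.

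The largest differences were in the lower part of the pathway. Pgk1, the first step that yields ATP, had 441, 443 and 431 RPKM in KO against 106, 106 and 109 RPKM in WT (log2 fold change 2.02, SE 0.14, limma adjusted p = 2.13e-08). Pkm had 1282, 1391 and 1301 RPKM in KO against 401, 408 and 424 RPKM in WT (log2 fold change 1.68, SE 0.16, adjusted p = 4.52e-07). Pgam1, the phosphoglycerate mutase, had 437, 439 and 438 RPKM in KO against 146, 140 and 145 RPKM in WT (log2 fold change 1.60, SE 0.14, adjusted p = 2.95e-07). Each was 3.04 to 4.06 times as high in KO on the log2(RPKM + 1) scale, with the replicates close together and no overlap.

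Gapdh had 1947, 1964 and 1953 RPKM in KO against 661, 677 and 672 RPKM in WT (log2 fold change 1.54, SE 0.17, limma adjusted p = 2.53e-06). Ldha, which turns pyruvate into lactate, had 321, 318 and 312 RPKM in KO against 116, 115 and 115 RPKM in WT (log2 fold change 1.45, SE 0.19, adjusted p = 1.74e-05). Gapdh was 2.91 and Ldha 2.73 times as high in KO, and the groups did not overlap. Eno1 (log2 fold change 1.44), Tpi1 (1.24), Aldoc (0.58) and Aldoa (0.56) rose too, as did Slc16a3, a lactate exporter, by 0.62. Gapdh, Pgk1, Pkm, Ldha, Eno1 and Aldoa have near-identical copies in the genome, so the placement of their reads is uncertain.

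The hypoxia side did not move as one. Hif1a had 27.1, 26.1 and 24.4 RPKM in KO against 37.4, 40.2 and 38.6 RPKM in WT, without overlap, but did not pass (log2 fold change -0.57, SE 0.32, limma adjusted p = 0.174). Vegfa, a known Hif1a target, had 9.73, 8.89 and 9.99 RPKM in KO against 20, 18.6 and 18.4 RPKM in WT, and fell (log2 fold change -0.92, SE 0.23, adjusted p = 0.00468). Other targets rose: Pdk1, the kinase that shuts pyruvate dehydrogenase (log2 fold change 1.18), P4ha2 and P4ha1, collagen prolyl hydroxylases (1.20 and 0.41), Ero1l, an oxidase of the endoplasmic reticulum (1.05), and Higd1a, a mitochondrial protein (1.04). Slc2a3, a high-affinity glucose transporter, rose by 0.81. Bnip3, Egln1, Ndrg1 and Slc2a6 did not pass. Egln3, not tested, had 0.868, 0.773 and 0.693 RPKM in KO and 0.470, 0.444 and 0.339 RPKM in WT.

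Markers of other cells moved with this difference. The 8 markers of dividing cells summed to 487 to 506 RPKM in KO (8 of 8 at 1 RPKM or more) and to 13.3 to 15.6 RPKM in WT (4 of 8), and 8 markers of neutrophils and granulocyte precursors to 193 to 205 RPKM in KO (5 of 8) and 15.2 to 21.4 RPKM in WT (3 of 8). The 8 macrophage markers summed to 1949 to 1966 RPKM in KO and 3724 to 3862 RPKM in WT. None of the dividing-cell and granulocyte markers was at 0 in these groups, and their part in the result was not tested. Median-of-ratios scaling shifts all genes by a median of -0.23 at day 0 and leaves 14 members higher and 6 lower, and a fit with gene length leaves 16 higher and 7 lower. Under that scaling the isomerase, aldolase and export steps held no gene that passed: Gpi1 was at 0.24 (limma adjusted p = 0.114), Aldoa at 0.30 (0.327), Aldoc at 0.36 (0.128) and Slc16a3 at 0.38 (0.207).

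**Figure D2:**
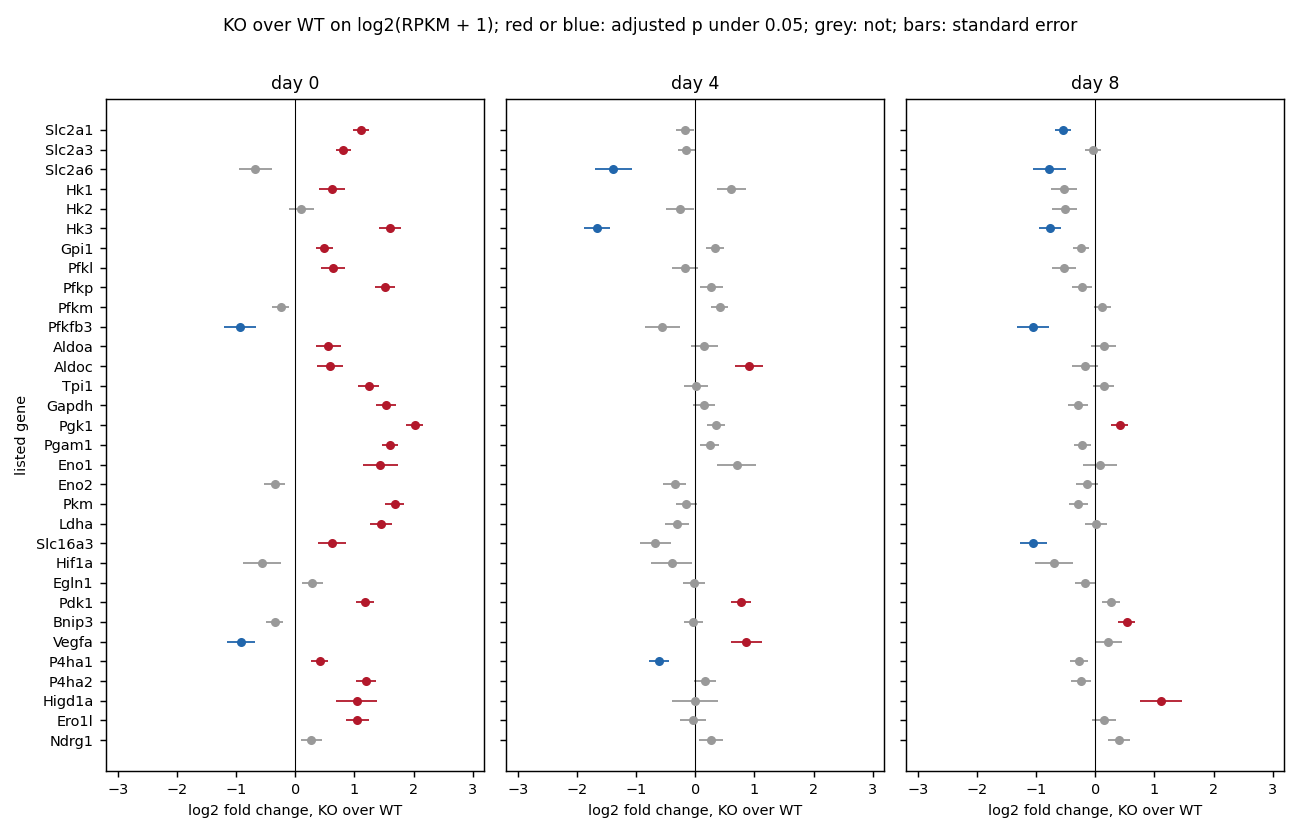
Log2 fold change of KO over WT on log2(RPKM + 1) with its standard error for the 32 tested genes at days 0, 4 and 8, red or blue where the limma adjusted p was under 0.05 and grey otherwise. At day 0, 22 genes are red and 2 blue, and at day 4 there are 3 of each. At day 8, 3 are red and 5 blue.

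At days 4 and 8 this gap had closed in the counts of members and in their summed RPKM. At day 4, 3 members were higher and 3 lower in KO (13.4% of all genes passed, 3.06% higher and 10.3% lower), and at day 8, 3 were higher and 5 lower (31.2% of all genes, 8.62% higher and 22.6% lower). Neither count stands far from its background, and leaving out WT replicate 3 at day 4 or WT replicate 1 at day 8 lowers it to 3 and 4 members. With only the 2 groups of day 4 in the fit, 0 members passed there by limma (30 tested, with 2 higher and 3 lower at an unadjusted p under 0.05), so each call of day 4 rests on a spread shared with the other days. Median-of-ratios scaling, with a median shift of 0.14 at day 4, leaves 6 higher and 3 lower there. Summed RPKM of the members was 3471 to 4527 in KO and 3522 to 3781 in WT at day 4, and 4642 to 6097 in KO and 5897 to 5945 in WT at day 8. As a share of a library's summed RPKM over all genes, this was 0.837 to 1.05% in KO and 0.602 to 0.904% in WT at day 4. At day 8 the share was 0.991 to 1.13% in KO and 1.38 to 1.42% in WT, so by share KO lay below WT without overlap.

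Hk3 had the lowest adjusted p at day 4. It had 14.2, 8.68 and 10.9 RPKM in KO against 43.3 and 32.0 RPKM in WT, and fell (log2 fold change -1.67, SE 0.22, limma adjusted p = 6.28e-05), the opposite direction to day 0. Hk1 then made up 68.5% ± 4.70 of hexokinase RPKM in KO (n = 3) and 33.7% ± 6.08 in WT (SD, n = 2). Slc2a6 had 3.08, 1.84 and 1.82 RPKM in KO against 10.1 and 5.37 RPKM in WT, and fell by 1.39 on the log2 scale (adjusted p = 0.00681 by limma). P4ha1 fell as well, by 0.62.

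The members that rose at day 4 were Pdk1, Aldoc and Vegfa. Pdk1 had 51.9, 47.6 and 37 RPKM in KO against 30.3 and 22.2 RPKM in WT (log2 fold change 0.77, SE 0.17, limma adjusted p = 0.00575). Vegfa had 24.7, 21.2 and 14.3 RPKM in KO against 14.2 and 7.45 RPKM in WT (log2 fold change 0.86, SE 0.26, adjusted p = 0.0385). Aldoc had 17.8, 13.2 and 16.7 RPKM in KO against 10.7 and 5.80 RPKM in WT (log2 fold change 0.91, SE 0.24, adjusted p = 0.0189). For these 3 genes all KO libraries were above all WT libraries, though only just for Vegfa. Gapdh (log2 fold change 0.15, adjusted p = 0.700), Ldha (-0.31, 0.407), Slc2a1 (-0.18, 0.512) and Hif1a (-0.40, 0.542) did not pass.

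Replicates of days 4 and 8 were uneven. The deviation of a library from its group mean went with gene length in KO at day 4, with correlations of 0.534, 0.517 and -0.566 for replicates 1 to 3, and in KO at day 8, with 0.29, -0.232 and -0.238. In WT at day 4 the correlations were 0.506 and -0.506, which with 2 libraries are mirror images, so neither can be called the deviating one. Same-numbered KO and WT libraries of day 4 deviated together, with correlations over all genes of 0.87 for replicate 1 and 0.9 for replicate 3. The main test of day 4 does not pair them. Without replicate 3 of both groups at day 4 and KO replicates 2 and 3 at day 8, the 4 libraries of these days with the highest summed RPKM over all genes (540595 to 584689, against 346395 to 468309 in the others), 3 members were higher and 9 lower at day 4, and 8 higher and 15 lower at day 8. That fit leaves 1 WT library at day 4 and 1 KO library at day 8, the shallowest of the KO and WT experiment at 15.6 M alignments, whose spread is taken from the other groups, so nothing is read from its counts.

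At day 8 Slc2a1, Slc2a6, Slc16a3, Pfkfb3 and Hk3 were lower in KO, while Slc2a3 was at a log2 fold change of -0.041 (limma adjusted p = 0.824). Slc2a1 had 21.6, 26.3 and 26.4 RPKM in KO against 36.3, 39.7 and 33.8 RPKM in WT, and fell by 0.55 on the log2 scale (limma adjusted p = 0.00785), again opposite to day 0. Slc16a3 had 4.22, 10.8 and 9.32 RPKM in KO against 19.3, 17.1 and 14.5 RPKM in WT (log2 fold change -1.05, SE 0.23, adjusted p = 0.00524). Pfkfb3 had 1.14, 0.856 and 0.792 RPKM in KO against 3.09, 3.11 and 2.73 RPKM in WT (log2 fold change -1.05, SE 0.27, adjusted p = 0.0111). None of these overlapped. Hk3 (log2 fold change -0.77) and Slc2a6 (-0.78) fell too.

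Higher in KO at day 8 were Higd1a, Bnip3 and Pgk1. Higd1a had 37.2, 42.5 and 43.6 RPKM in KO against 20.2, 18.5 and 16.7 RPKM in WT (log2 fold change 1.11, SE 0.35, limma adjusted p = 0.0262). Bnip3 had 26.2, 19.8 and 20.8 RPKM in KO against 14.3, 15.1 and 15.7 RPKM in WT (log2 fold change 0.53, SE 0.14, adjusted p = 0.0140). Pgk1 had 534, 532 and 546 RPKM in KO against 407, 404 and 404 RPKM in WT (log2 fold change 0.41, SE 0.14, adjusted p = 0.0451). The groups did not overlap in these 3 genes, but the calls of Higd1a and Pgk1 were each lost on leaving out 1 library in 5 of 6 cases. Ldha (log2 fold change 0.011, adjusted p = 0.969), Gapdh (-0.30, 0.171) and Hif1a (-0.70, 0.1) did not pass. Egln3 was listed at 0 in all 3 KO libraries and had 0.178, 0.140 and 0.371 RPKM in WT.

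Marker lists of other cells differed at day 8 as well. The 8 markers of stromal cells and osteoblasts summed to 2.78 to 19 RPKM in KO (3 of 8 at 1 RPKM or more, Lum at 0) and to 98.5 to 625 RPKM in WT (6 of 8, none at 0). The 8 osteoclast markers summed to 23457 to 28893 RPKM in KO and 12858 to 16072 RPKM in WT. Their part in these results was not tested.

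**Figure D3:**
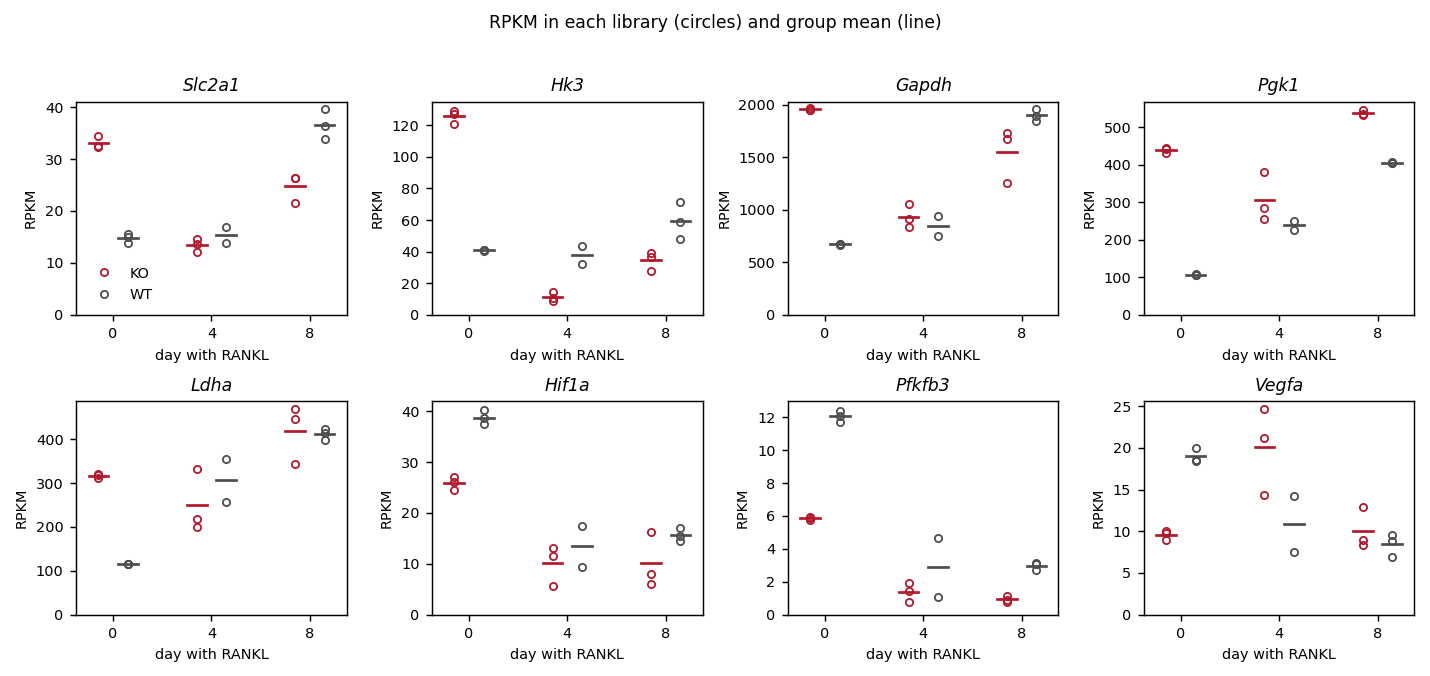
RPKM of 8 members in each library (circles) and the group mean (line) at days 0, 4 and 8, KO in red and WT in grey, with 2 WT libraries at day 4 and 3 in every other group. Hk3, Gapdh, Pgk1 and Ldha are 2.73 to 4.06 times as high in KO as in WT at day 0 on the log2(RPKM + 1) scale, Hk3 lies below WT at days 4 and 8, and Ldha overlaps at days 4 and 8.

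Seen over time, most glycolytic transcripts were higher at day 8 than at day 0 in WT, while in KO, where they started high, most were lower at day 4. In WT, 8 members were higher and 8 lower at day 4 than at day 0 (43.2% of all genes passed, and 8 members in all without WT replicate 3 of day 4), and 18 were higher and 7 lower at day 8 (52.7% of all genes, 29.3% higher and 23.4% lower). The median over the members at day 8 was 0.50, against 0.045 over all genes. In KO, 5 were higher and 21 lower at day 4 than at day 0 (57.9% of all genes, 13.6% higher and 44.2% lower), and 4 higher and 16 lower at day 8 (59.2%, 18.3% higher and 41% lower). Their medians were -0.87 at day 4 and -0.38 at day 8, against -0.43 and -0.28 over all genes.

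In WT at day 8, the same chain of enzymes led the rises. Pgk1, at 106, 106 and 109 RPKM on day 0, 226 and 250 RPKM on day 4 and 407, 404 and 404 RPKM on day 8, rose by 1.91 on the log2 scale at day 8 over day 0 (SE 0.14, limma adjusted p = 3.67e-08). Ldha, at 116, 115 and 115 RPKM on day 0, 258 and 356 RPKM on day 4 and 415, 399 and 424 RPKM on day 8, rose by 1.83 (SE 0.19, adjusted p = 1.15e-06). At day 4 over day 0, Ldha rose by 1.39 and Pgk1 by 1.14. At day 8, Pgam1 rose by 1.59, Gapdh by 1.5, Tpi1 by 1.39, Pkm by 1.27, Slc2a1 by 1.25 and Pfkp by 1.21. For Pgk1 and Ldha the libraries of each day lay above those of the day before.

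The hypoxia genes of WT cells went both ways. Hif1a had 37.4, 40.2 and 38.6 RPKM at day 0, 17.5 and 9.40 RPKM at day 4 and 17.1, 14.4 and 15.5 RPKM at day 8. It fell by 1.52 at day 4 (limma adjusted p = 0.00370) and by 1.25 on the log2 scale at day 8 (adjusted p = 0.00360). Ndrg1, a stress-response gene, had 3.38, 4.11 and 3.01 RPKM at day 8, against 18.8, 17.8 and 17.1 RPKM at day 0, and fell by 2.08. Pfkfb3 fell by 1.93 at day 4 and 1.72 at day 8, Slc2a3 by 1.54 and 1.49, Hk2 by 1.13 at day 4 and Vegfa by 1.09 at day 8. Higd1a had 5.73, 5.46 and 5.15 RPKM at day 0, 12.4 and 30.5 RPKM at day 4 and 20.2, 18.5 and 16.7 RPKM at day 8, and rose by 1.68 at day 4 (SE 0.39, adjusted p = 0.0036) and by 1.59 at day 8 (SE 0.35, adjusted p = 0.00127). Its rise at day 4 was the largest of the members, on 2 libraries that lay far apart. Pdk1 had 8.18, 7.74 and 7.56 RPKM at day 0, 30.3 and 22.2 RPKM at day 4 and 15.6, 16.3 and 13.5 RPKM at day 8, and rose at both (1.61 and 0.87). Its highest WT level was thus at day 4, without overlap with the other days.

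In KO cells the largest falls were in Hk3 at day 4 and in Slc2a3 at day 8. Hk3 had 121, 129 and 127 RPKM at day 0, 14.2, 8.68 and 10.9 RPKM at day 4 and 27.4, 39 and 36.8 RPKM at day 8, and fell by 3.40 on the log2 scale at day 4 (SE 0.19, limma adjusted p = 1.08e-09) and by 1.86 at day 8 (adjusted p = 1.47e-06). Slc2a3 had 6.06, 6.06 and 5.95 RPKM at day 0, and at most 0.659 RPKM later, and fell by 2.5 and 2.34. Ndrg1 had 3.64, 6.62 and 4.81 RPKM at day 8, against 21.8, 21.2 and 22.5 RPKM at day 0, and fell by 1.95 (adjusted p = 5.54e-07). Slc16a3 fell by 1.85 at day 4, and Pfkfb3 by 1.55 at day 4 and 1.83 at day 8. Slc2a1 fell by 1.24 at day 4 and by 0.41 at day 8, and Gapdh fell by 1.07 at day 4 and did not pass at day 8 (-0.35, adjusted p = 0.0886). Ldha did not pass at either day (-0.38, adjusted p = 0.104, and 0.39, adjusted p = 0.0911).

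The members that rose in KO at day 4 were Pdk1 (1.20), Vegfa (0.97), Aldoc (0.79), Bnip3 (0.73) and Pfkm (0.38), and at day 8 Higd1a (1.66), Eno2 (0.70), Bnip3 (0.49) and Pfkm (0.34), all on the log2 scale with limma adjusted p from 8e-06 to 0.0465. Pdk1 reached 51.9, 47.6 and 37 RPKM at day 4, against 18.9, 19.2 and 19 RPKM at day 0. Median-of-ratios scaling shifts all genes by a median of 0.43 at day 4 and 0.22 at day 8 of KO, with 7 members higher and 15 lower at day 4, 8 higher and 13 lower at day 8, and Gpi1 (-0.45 at day 4) turned to 0.043.

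The difference between these courses was tested itself. The change from day 0 to day 4 differed between KO and WT for 16 members, 14 of them with a lower change in KO (27.6% of all genes, 5.85% higher and 21.7% lower), and that to day 8 for 21, 19 of them lower (37.8% of all genes, 10.1% higher and 27.7% lower). The median of this difference over the members was -0.78 at day 4 and -0.87 at day 8, against -0.25 and -0.30 over all genes. Hk3 led with -3.27 at day 4 (SE 0.29, limma adjusted p = 6.69e-07) and -2.37 at day 8 (SE 0.27, adjusted p = 7.34e-06). Pkm followed with -1.84 and -1.97. Next came Ldha (-1.76) and Pgk1 (-1.68) at day 4, and Gapdh (-1.85) and Pgam1 (-1.82) at day 8, where Ldha was at -1.44. Vegfa had the largest difference in the other direction, at 1.79 on day 4 (adjusted p = 0.00123) and 1.14 on day 8 (adjusted p = 0.0131). Hif1a did not pass (0.16, adjusted p = 0.841, and -0.13, adjusted p = 0.840). Under median-of-ratios scaling (median shifts of 0.36 and 0.28), 3 were higher and 10 lower at day 4. These differences share the day 0 libraries of both genotypes with the day 0 comparison above.

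Other genes of the same pathways were read from lists chosen with earlier results known. At day 0, 26.5% of all genes tested were higher and 13.7% lower in KO. Of 21 other hypoxia genes, 6 were higher and 6 lower in KO at day 0, among them Hmox1, the heme oxygenase (log2 fold change 1.17), Bhlhe40, a transcription factor (1.75), and Ier3, a stress-response gene (-1.95). Of 10 other sugar phosphate genes 4 were higher and 1 lower, led by Tigar, a phosphatase that draws sugar away from glycolysis (1.52, limma adjusted p = 2.03e-07). Of 7 pentose phosphate genes, Rpe, Rpia and Tkt were higher and 0 lower by limma, with 4 higher and 0 lower at an unadjusted p under 0.05. Of 12 genes of pyruvate and lactate use, 4 were higher and 4 lower, with Slc16a1, a monocarboxylate carrier, at 1.11 and Pdk2, another pyruvate dehydrogenase kinase, at -1.68.

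Among the pyruvate genes, Ldhb rose far in both genotypes with RANKL and time in culture. Ldhb, the lactate dehydrogenase subunit of oxidative tissues, had 227, 189 and 421 RPKM in KO at day 4, against 2.83, 2.90 and 2.68 RPKM in KO at day 0, a log2 fold change of 6.11 (limma adjusted p = 2.70e-11). In WT it had 9.89, 9.08 and 8.99 RPKM at day 0, 188 and 277 RPKM at day 4 and 97.6, 108 and 77.7 RPKM at day 8 (log2 fold change 3.2 at day 8, adjusted p = 3.37e-08). It rose in both genotypes without overlap between the days. Of all genes tested, 13.6% were higher and 44.2% lower in KO at day 4 than at day 0. In KO at day 4, 9 of 12 genes of this list were higher and 2 lower, Pdhb (2.08) and Pdha1 (1.55) of pyruvate dehydrogenase among them, while of 7 pentose phosphate genes 5 were lower and 0 higher by limma (0 also at an unadjusted p under 0.05), G6pdx, the first enzyme, by 2.71. At day 8, 9 of 21 other hypoxia genes were lower in KO than in WT and 0 higher by limma (0 also at an unadjusted p under 0.05), with Loxl2, a collagen crosslinking enzyme (-2.07), and the peptide hormone gene Adm (-1.87) among them. Of all genes tested, 8.62% were higher and 22.6% lower in KO than in WT at day 8. Loxl2 is also known from stromal cells, whose markers are given above.

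With human IRF8 constructs, Hk2, Hif1a, Slc2a3, Vegfa, Pfkfb3 and Pfkp were among the largest differences at day 0. These 6 were higher with each of the 3 constructs than in mock, and Ndrg1 and Higd1a lower. Against mock, 20 members were higher and 6 lower with hIRF8379-389, 20 higher and 5 lower with hIRF8G388S, and 15 higher and 4 lower with hIRF8WT (14 members in all with hIRF8379-389 with only its 2 groups in the fit). At 73.2%, 73.1% and 74.7% of all 11374 genes tested, the background was close to it, with 49.6%, 49.3% and 48.1% of genes higher and 23.6%, 23.8% and 26.6% lower. The medians over the members were 0.34, 0.33 and 0.24, against 0.27, 0.28 and 0.24 over all genes. The 3 comparisons share the mock libraries.

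Hk2 had 27.7, 29.2 and 33.1 RPKM with hIRF8379-389, 25.5, 28.7 and 25.9 RPKM with hIRF8G388S and 28.2, 28.5 and 32.5 RPKM with hIRF8WT, against 7.98, 10.2 and 11.2 RPKM in mock. It rose by 1.53, 1.37 and 1.52 on the log2 scale in that order (limma adjusted p at most 4.56e-12). Hif1a had 22, 27.5 and 33.4 RPKM with hIRF8379-389, 25.2, 27.4 and 26.4 RPKM with hIRF8G388S and 27.9, 36.7 and 23.4 RPKM with hIRF8WT, against 9.21, 9.11 and 14.4 RPKM in mock. It rose by 1.27, 1.23 and 1.35. Every construct library lay above every mock library for both genes.

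Vegfa had 17, 18.1 and 18.1 RPKM with hIRF8379-389, 15.7, 17.6 and 16.5 RPKM with hIRF8G388S and 14.2, 16.3 and 16.9 RPKM with hIRF8WT, against 5.86, 6.33 and 7.34 RPKM in mock (log2 fold changes 1.32, 1.23 and 1.17). Slc2a3 had 3.77 to 4.75 RPKM with the constructs, against 0.813, 1.31 and 1.96 RPKM in mock (1.15, 1.07 and 1.23). Pfkfb3 had 9.37 to 13.9 RPKM with the constructs, against 4.27, 4.28 and 5.99 RPKM in mock (1.18, 1.22 and 1.00). No construct library overlapped mock in these 3 genes, and all limma adjusted p were at most 1.79e-08. Pfkp had 35.2 to 46.5 RPKM with the constructs, against 18.6, 18.7 and 21.3 RPKM in mock (log2 fold changes 1.08, 0.90 and 0.96), and made up 60.7% ± 1.74, 60.1% ± 1.33 and 60.2% ± 3.50 of phosphofructokinase RPKM with hIRF8379-389, hIRF8G388S and hIRF8WT, against 35.9% ± 1.35 in mock (SD, n = 3 each).

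Lower with all 3 constructs were Ndrg1, Higd1a, Pfkl and Pfkm. Ndrg1 had 4.73 to 7.84 RPKM with the constructs, against 15.2, 16.7 and 12.9 RPKM in mock (log2 fold changes -1.04, -1.04 and -1.09, limma adjusted p at most 8.93e-09). Higd1a had 10.2 to 14.5 RPKM with the constructs, against 23.1, 22.4 and 25.8 RPKM in mock (-0.87, -0.89 and -0.87). Both were without overlap. Pfkl fell by 0.32, 0.46 and 0.43 and Pfkm by 0.35, 0.48 and 0.36, and P4ha2 fell with hIRF8379-389 by 0.36. Bnip3 passed as higher with hIRF8379-389 (0.25), and that value turned to -0.039 under median-of-ratios scaling.

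The abundant enzymes differed by less in RPKM. Gapdh had 2162, 1926 and 1471 RPKM with hIRF8379-389, 2117, 1773 and 1892 RPKM with hIRF8G388S and 1942, 1344 and 1967 RPKM with hIRF8WT, against 1526, 1681 and 1433 RPKM in mock. The groups overlapped except for hIRF8G388S, the one that passed (log2 fold change 0.32, limma adjusted p = 0.0215). Ldha passed with hIRF8379-389 (0.32) and with hIRF8G388S (0.26, turned to -0.047 by median-of-ratios scaling) but not with hIRF8WT (0.10, adjusted p = 0.379). Slc2a1 had 20.6 to 37.3 RPKM with the constructs, against 28.3, 28.1 and 10.4 RPKM in mock, where replicate 3 was far below the others. Pgam1 rose with each construct (0.26, 0.23 and 0.17) and turned negative with each under that scaling (-0.055, -0.08 and -0.11), as did Pgk1 with hIRF8379-389 (0.24, turned to -0.072).

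That scaling shifts all genes by a median of -0.24 to -0.27 in these 3 comparisons, and leaves 12 members higher and 9 lower with hIRF8379-389, 12 higher and 10 lower with hIRF8G388S and 11 higher and 10 lower with hIRF8WT. Summed RPKM over all genes was 512340 to 592527 in the mock libraries and 370451 to 444511 in those of the constructs, without overlap. The members made up 0.924 to 1.07% of it in mock and 1.29 to 1.57% with the constructs. The cause of this difference was not tested. Dividing-cell markers summed to 263 to 306, 256 to 281 and 298 to 338 RPKM with these constructs, against 139 to 147 RPKM in mock (8 of 8 at 1 RPKM or more in each). Markers of neutrophils and granulocyte precursors summed to 271 to 512 RPKM over the constructs, against 971 to 1317 RPKM in mock, with none at 0. Their part in the result was not tested.

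**Figure D4:**
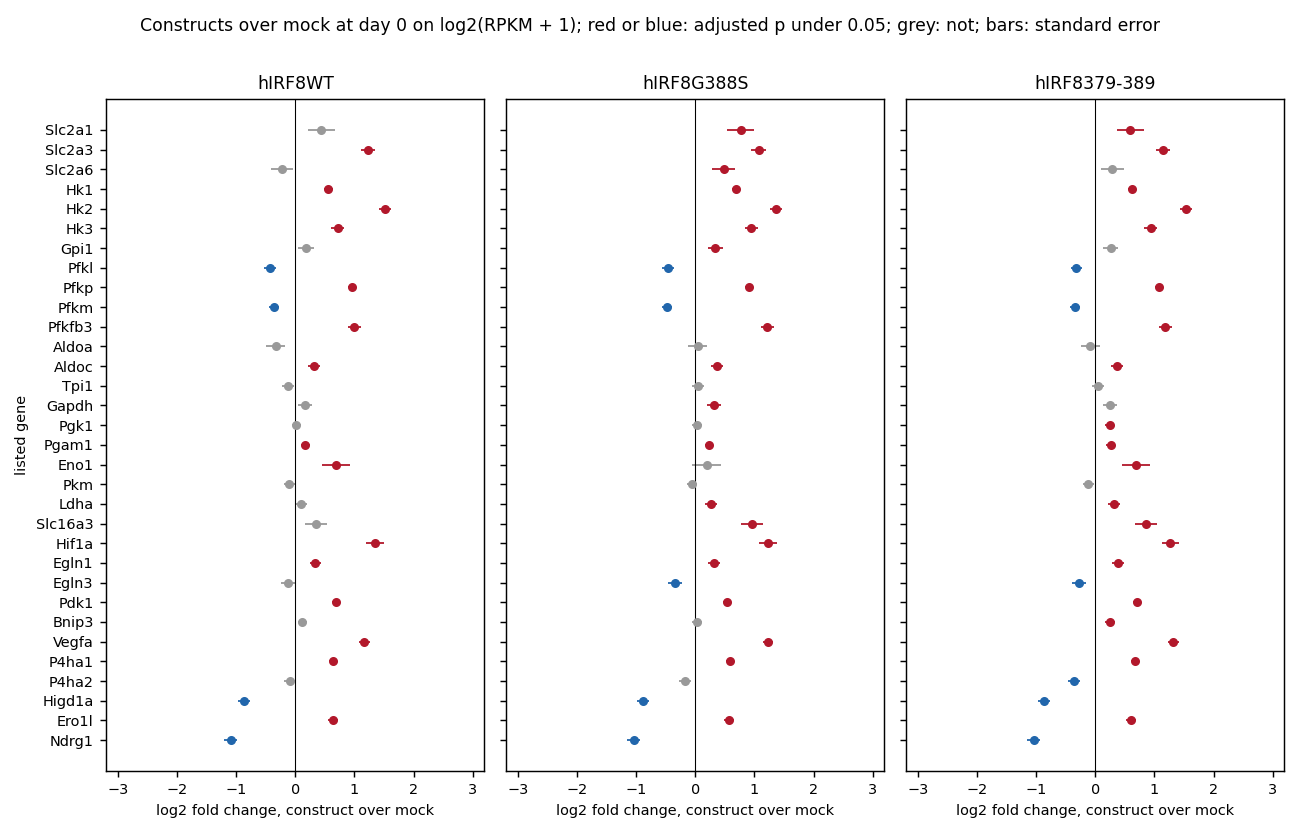
Log2 fold change of each construct over mock at day 0 on log2(RPKM + 1) with its standard error for the 32 tested genes, red or blue where the limma adjusted p was under 0.05 and grey otherwise. Hk2, Hif1a, Slc2a3, Vegfa and Pfkfb3 are red and at or above 1.00 in all 3 panels, and Ndrg1 is lowest in each. The red Pgam1 in each panel, Ldha with hIRF8G388S and Pgk1 and Bnip3 with hIRF8379-389 turn negative under median-of-ratios scaling.

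Between the altered constructs and hIRF8WT no member passed at day 0. Against hIRF8WT, 0 of 32 members passed with hIRF8379-389 (0.0176% of all genes passed, lowest adjusted p of a member 0.574 by limma) and 0 with hIRF8G388S (0.765%, lowest 0.0779, for Slc2a6). At an unadjusted p under 0.05 there were 5 members with hIRF8379-389 (4 higher and 1 lower) and 4 with hIRF8G388S (3 higher and 1 lower), and without hIRF8WT replicate 3 the adjusted counts were 4 and 5. At day 4, 4 were higher and 8 lower with hIRF8379-389 (32.2% of all genes), and 6 higher and 6 lower with hIRF8G388S (27.7%, 5 members in all without hIRF8G388S replicate 2 or hIRF8WT replicate 1, and 25 with only the 2 groups in the fit). Pgam1 had 353, 336 and 327 RPKM with hIRF8379-389 and 354, 359 and 367 RPKM with hIRF8G388S, against 235, 247 and 242 RPKM with hIRF8WT (log2 fold changes 0.49 and 0.58). Higd1a (0.50 and 0.48) and Gapdh (0.34 and 0.39) rose with both, Bnip3 with hIRF8379-389 (0.53) and Ldha with hIRF8G388S (0.29). Hk2 fell with both, by 0.47 and 0.39, as did P4ha2, by 0.38 and 0.32. With hIRF8379-389 Hk1 (-0.51) and Pfkl (-0.36) fell, and with hIRF8G388S Vegfa (-0.33) and Pfkm (-0.26). The hIRF8WT libraries of day 4 were alone in their run, so construct and run cannot be told apart at that day.

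At days 4 and 8 several hypoxia targets lay below mock with the constructs. At day 4, 6 members were higher and 8 lower with hIRF8379-389 (30% of all genes, 13.3% higher and 16.7% lower). With hIRF8G388S 6 were higher and 7 lower (26.3%, 13.6% and 12.7%), and with hIRF8WT 5 and 8 (47.5%, 23.8% and 23.7%). At day 8, in the same order, there were 5 higher and 11 lower (50%, 25.4% and 24.6%), 4 and 11 (45%, 24.4% and 20.6%) and 3 and 9 (30.6%, 14.6% and 16%). The day 8 totals with hIRF8379-389 and hIRF8G388S were close to the share over all genes, and the day 4 total with hIRF8WT was not above it. Vegfa, higher with all 3 at day 0, had 7.69, 6.41 and 6.75 RPKM with hIRF8379-389, 7.04, 5.95 and 6.43 RPKM with hIRF8G388S and 9.10, 7.80 and 8.34 RPKM with hIRF8WT at day 4, against 11.9, 12 and 11.7 RPKM in mock. It fell by 0.70, 0.79 and 0.45 on the log2 scale. At day 8 it fell by 0.70, 0.84 and 0.76. Ndrg1 also fell with all 3 at day 4, by 0.51, 0.68 and 0.52. P4ha2 (-0.50 and -0.45), Pfkl (-0.57 and -0.41) and Pfkm (-0.45 and -0.44) fell with hIRF8379-389 and hIRF8G388S, and Bnip3 (-0.67), Aldoa (-0.47) and Pgam1 (-0.47) with hIRF8WT.

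Higher than mock at day 4 with all 3 constructs were Slc2a6, Slc2a3, Pfkp and Hk3. Slc2a6 had 14.8, 14 and 12.4 RPKM with hIRF8379-389, 14.9, 13.5 and 13.9 RPKM with hIRF8G388S and 9.96, 10.9 and 10.8 RPKM with hIRF8WT, against 7.62, 6.65 and 6.42 RPKM in mock (log2 fold changes 0.90, 0.93 and 0.55, limma adjusted p at most 0.0194). Slc2a3 rose by 0.69, 0.92 and 0.68, Pfkp by 0.54, 0.61 and 0.84 and Hk3 by 0.35, 0.53 and 0.33, and Hk2 rose with hIRF8WT by 0.78. Slc2a6 was without overlap with mock in every construct group.

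Ndrg1 at day 8 had 3.35, 3.71 and 3.31 RPKM with hIRF8379-389, 3.77 and 3.53 RPKM with hIRF8G388S and 3.85 and 3.48 RPKM with hIRF8WT, against 9.52 and 9.63 RPKM in mock (log2 fold changes -1.25, -1.18 and -1.18, limma adjusted p at most 1.92e-07). Bnip3 had 10.7, 10.5 and 9.81 RPKM, 11.2 and 11.1 RPKM, and 13.1 and 12.6 RPKM with the constructs in the same order, against 20.4 and 17.7 RPKM in mock (-0.82, -0.72 and -0.53). P4ha2 had 0.604 to 0.929 RPKM with the constructs, against 1.86 and 1.93 RPKM in mock (-0.64, -0.74 and -0.69). The groups did not overlap in these genes. Pdk1, Pfkm, Pfkl and Aldoc also fell with all 3, Pfkm by 0.58 with hIRF8WT.

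Slc2a3, Hk2 and Pfkp stayed higher with the constructs. At day 8 Hk2 had 12.7, 13.3 and 13.8 RPKM with hIRF8379-389, 13.1 and 14.3 RPKM with hIRF8G388S and 10.9 and 10.5 RPKM with hIRF8WT, against 6.54 and 8.15 RPKM in mock (log2 fold changes 0.78, 0.82 and 0.49, limma adjusted p at most 0.00239). Slc2a3 had 2.24 to 2.70 RPKM with the constructs, against 0.666 and 1.44 RPKM in mock (0.73, 0.84 and 0.71). Pfkp was 0.31, 0.40 and 0.31 above mock on the log2 scale, and the first 2 of these turned to -0.16 and -0.079 in a fit with gene length. Eno1 had 119, 102 and 150 RPKM with hIRF8379-389 and 151 and 115 RPKM with hIRF8G388S, against 77.9 and 75.2 RPKM in mock, and rose by 0.66 and 0.77 (adjusted p = 0.0450 and 0.0366). Hif1a, Gapdh, Ldha and Slc2a1 did not pass at day 8 with any construct. Eno2, not tested, stood at 0.112 to 0.630 RPKM with the constructs and at 0.589 to 1.13 RPKM in mock over the 3 days, overlapping.

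In mock itself, 9 members were higher and 9 lower at day 4 than at day 0 (73.5% of all genes), and 10 higher and 9 lower at day 8 (66.5%, and 6 members in all with only the 2 groups in the fit). Pdk1 had 6.93, 6.46 and 6.58 RPKM at day 0, 18.3, 19.4 and 18.2 RPKM at day 4 and 18.1 and 19.4 RPKM at day 8 (log2 fold changes 1.36 and 1.37 over day 0, limma adjusted p at most 2.09e-14). Hk3 had 97.9, 115 and 87.5 RPKM, then 43.3, 37.3 and 41.3 RPKM, then 32.0 and 37 RPKM on the 3 days, and fell by 1.27 and 1.51. Neither gene overlapped day 0 at a later day. Aldoc rose by 0.83 and 0.73, Hk1 by 0.91 at day 4 and Tpi1 by 0.50 at day 8. P4ha2 fell by 0.98 and 0.97, Higd1a and Pfkl each by 0.69 at day 4, and Egln3 by 0.71 and Pfkfb3 by 0.63 at day 8. Hif1a rose at both days (1.11 and 0.62), where in KO and in WT it fell. Summed RPKM over all genes was 512340 to 592527 in mock at day 0, 391140 to 433007 at day 4 and 466123 to 493348 at day 8. At day 8 Gapdh rose by 0.35 and Ldha by 0.32, but these values turned to -0.047 and -0.082 under median-of-ratios scaling, which shifts all genes by a median of -0.29 at day 4 and -0.35 at day 8 and leaves 6 members higher and 15 lower at day 4 and 2 higher and 13 lower at day 8.

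Among other hypoxia genes at day 0, 6 of 19 were higher and 6 lower with hIRF8WT than in mock, Arnt, the partner subunit of Hif1a (1.22), and Vhl, which degrades Hif1a (1.28), among the higher. Of 11 pyruvate and lactate genes 4 were higher and 4 lower, with Ldhb at -1.90, and of 9 sugar phosphate genes 6 were higher and 1 lower, led by Gpd2, the mitochondrial glycerol phosphate dehydrogenase, at 1.78. Of all genes tested, 48.1% were higher and 26.6% lower in this comparison.

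In macrophages, the largest rises with IFNg alone were in a transporter and a hexokinase, and the core enzymes changed by less. Of 33 members, 15 were higher and 16 lower with IFNg than untreated, where 71.9% of all 11237 genes passed (22.3% higher and 49.6% lower). The medians were -0.096 over the members and -0.17 over all genes. Comparisons between treatments are means over the 4 genotype labels, with 8 libraries on each side, given as lowest, median and highest.

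Slc2a6 had 111, 126 and 312 RPKM with IFNg, against 10.8, 15.2 and 154 RPKM untreated, a log2 fold change of 2.83 (SE 0.23, limma adjusted p = 1.45e-10). Hk3 had 371, 382 and 428 RPKM with IFNg, against 91.9, 103 and 251 RPKM untreated (1.76, SE 0.11, adjusted p = 5.55e-13). The highest untreated value of both genes is the shallow library, with 16.9 and 99.1 RPKM in its partner. Without it the fold changes were 3.22 (adjusted p = 5.32e-26) for Slc2a6 and 1.93 (adjusted p = 3.25e-23) for Hk3, and the groups did not overlap. In mock, Slc2a6 made up 88.8% ± 0.167 of the transporter RPKM with IFNg and 44% ± 4.78 untreated (SD, n = 2 each).

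Pfkp had 18.7, 33.1 and 36.1 RPKM with IFNg, against 9.70, 12.2 and 22 RPKM untreated (log2 fold change 1.18, limma adjusted p = 1.42e-12). Hk1 had 39.3, 43 and 51.1 RPKM with IFNg, against 16, 19.3 and 39.8 RPKM untreated (1.09, adjusted p = 1.15e-09). Hif1a had 28.2, 35 and 39.7 RPKM with IFNg, against 12.7, 18 and 33.1 RPKM untreated (0.88, adjusted p = 4.49e-09). In these 3 genes the one untreated library that reached into the IFNg range was the shallow one, without which the fold changes were 1.28, 1.24 and 1.01. Gapdh (0.40), Slc2a1 (0.47) and Pkm (0.39) rose by less, and Ldha fell by 0.24.

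Several hypoxia targets fell with IFNg. Ndrg1 had 8.26, 9.26 and 12 RPKM with IFNg, against 16, 20.9 and 44.9 RPKM untreated (log2 fold change -1.21, limma adjusted p = 1.13e-11). Slc2a3 had 0.769, 0.885 and 1.14 RPKM with IFNg, against 2.48, 2.93 and 3.78 RPKM untreated (-1.07, adjusted p = 1.26e-15). P4ha2 had 0.631, 0.733 and 0.921 RPKM with IFNg, against 1.68, 2.37 and 4.21 RPKM untreated (-1.02, adjusted p = 6.53e-11). The groups were apart in these 3 genes. Eno2 had 0.192, 0.243 and 0.940 RPKM with IFNg, against 0, 1.18 and 3.08 RPKM untreated, where the 0 is the shallow library (-0.68, adjusted p = 3.77e-05). Of 21 other hypoxia genes, 3 were higher and 17 lower, Hmox1 (-1.71), Ier3 (-1.57) and Bnip3l (-0.96) among them, beside 22.3% of all genes higher and 49.6% lower. Without the shallow library, 14 members were higher and 16 lower (81.2% of all genes). Within 1 run the split was 14 and 16, and under median-of-ratios scaling, with a median shift of 0.12, 16 and 11. Markers of other cells were lower with IFNg too. Those of stromal cells and osteoblasts summed to 2.91 to 6.50 RPKM with IFNg (at most 2 of 8 at 1 RPKM or more) and 16.6 to 143 RPKM untreated (4 or 5 of 8), and those of osteoclasts to 23.1 to 33 RPKM with IFNg and 53.4 to 112 RPKM untreated (5 or 6 of 8 in both). Their part in the result was not tested.

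After 1 h of LPS on top of IFNg, Vegfa and Hif1a were up. Against IFNg alone, 7 members were higher and 14 lower (60.1% of all genes, 11.2% higher and 48.9% lower), a share lower that is near that of all genes. All libraries of 1 h came from another run than the IFNg libraries of mock, hIRF8WT and hIRF8G388S, so time and run cannot be told apart in these, and hIRF8379-389 alone had both in 1 run. Vegfa had 46.8, 79.4 and 98.3 RPKM at 1 h, against 24.5, 27.9 and 33 RPKM with IFNg (log2 fold change 1.36, SE 0.059, limma adjusted p = 8.84e-16). Hif1a had 39.3, 64.8 and 82.2 RPKM at 1 h, against 28.2, 35 and 39.7 RPKM (0.82, adjusted p = 2.82e-08). Vegfa was apart from IFNg, and Hif1a met it at the edge. Slc2a1 rose by 0.58 and Ero1l by 0.46.

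At the same hour Pfkfb3 had 4.86, 8.52 and 10.6 RPKM, against 10.7, 16.4 and 16.9 RPKM with IFNg, and fell by 0.85. P4ha1 fell by 0.63, Pgam1 by 0.46, Hk1 by 0.45, Gapdh by 0.43 and Ldha by 0.37, all with limma adjusted p at most 0.000574. Pkm (-0.21) and Bnip3 (-0.17) passed as lower and turned to 0.0014 and 0.015 under median-of-ratios scaling, which shifts all genes by a median of 0.18 and turns the split to 12 members higher and 8 lower. Within the 1 run of hIRF8379-389, 5 were higher and 12 lower.

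At 4 h Pfkfb3, Slc2a1, Hif1a and Slc2a6 were up most, and the direction of several core enzymes depended on the scaling. Against IFNg, 16 members were higher and 15 lower (89.2% of all genes, 15.3% higher and 73.9% lower), and the medians were 0.13 over the members and -0.74 over all genes. Pfkfb3 had 14.2, 149 and 174 RPKM at 4 h, against 10.7, 16.4 and 16.9 RPKM (log2 fold change 2.5, SE 0.059, limma adjusted p = 5.75e-22). Slc2a1 had 121, 126 and 144 RPKM, against 22.4, 25.4 and 39.2 RPKM (2.16, adjusted p = 1.34e-17). Hif1a had 112, 129 and 154 RPKM, against 28.2, 35 and 39.7 RPKM (1.88, adjusted p = 6.06e-16). Slc2a1 and Hif1a were wholly apart from IFNg, while the low end of Pfkfb3 is mock. Within a genotype label, libraries of 4 h and 8 h shared no run with those of IFNg, so time and run cannot be told apart in comparisons with IFNg at these times.

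Slc2a6 (1.76), Bnip3 (1.65), Slc16a3 (1.37), Hk2 (1.36) and Pfkp (1.11) rose as well at 4 h. Vegfa, up at 1 h, had 4.45, 5.36 and 7.03 RPKM at 4 h, far below all IFNg libraries (log2 fold change -2.18, SE 0.059, limma adjusted p = 7.13e-21). Slc2a3 had 0.143, 0.194 and 0.265 RPKM at 4 h, against 0.769, 0.885 and 1.14 RPKM with IFNg, without overlap (-0.67, adjusted p = 7.5e-13). Pdk1 fell by 1.14, Gpi1 by 1.09 and Pfkm by 1.02. The direction of 8 of the lower calls depends on the scaling, which shifts all genes by a median of 0.63: Gapdh (-0.24) turned to 0.55, Pgam1 (-0.29) to 0.50, Aldoa (-0.20) to 0.59, Ndrg1 (-0.38) to 0.33, Egln1 (-0.40) to 0.29, Hk3 (-0.60) to 0.19, Eno1 (-0.66) to 0.10 and Pkm (-0.72) to 0.071, and 23 members were then higher and 5 lower. Ldha rose by 0.13. Egln3 (0.15) and Hk1 (-0.023) did not pass.

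At 8 h nearly the whole list was up. All 33 members passed, 29 higher and 4 lower (85.2% of all genes, 19.2% higher and 66% lower), with a median of 1.64 over the members and -0.48 over all genes. Summed RPKM of the 33 genes was 8241 to 9791 in the libraries at 8 h, against 3716 to 4904 with IFNg, without overlap. Median-of-ratios scaling, with a median shift of 0.38, left 29 higher and 3 lower.

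Bnip3 rose most on the log2(RPKM + 1) scale; with a pseudocount of 0.1, Egln3 rose more (5.18, against 4.60 for Bnip3). Bnip3 had 202, 253 and 284 RPKM at 8 h, against 8.84, 9.60 and 12.4 RPKM with IFNg, a log2 fold change of 4.48 (SE 0.067, limma adjusted p = 1.44e-25). Pfkfb3 had 164, 296 and 318 RPKM at 8 h, against 10.7, 16.4 and 16.9 RPKM (4.05, SE 0.059, adjusted p = 1.07e-25). Slc2a1 had 287, 311 and 328 RPKM at 8 h, against 22.4, 25.4 and 39.2 RPKM (3.43, SE 0.085, adjusted p = 2.12e-21). These were 22.3, 16.6 and 10.7 times the IFNg level on the log2(RPKM + 1) scale, with every library at 8 h above every IFNg library.

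Egln3, the prolyl hydroxylase that Hif1a is known to induce against itself, had 6.06, 10 and 13.3 RPKM at 8 h, against 0.0836, 0.169 and 0.313 RPKM with IFNg (log2 fold change 3.18, SE 0.073, limma adjusted p = 5.21e-22). It was under 1 RPKM in 32 of the 38 groups, and its promoter above holds 1 ACGTG. Ero1l had 54.7, 72.2 and 85.9 RPKM at 8 h, against 6.08, 6.95 and 7.62 RPKM (3.17, adjusted p = 2.90e-24). Slc16a3 had 130, 164 and 173 RPKM at 8 h, against 13.3, 16.3 and 25 RPKM (3.10, adjusted p = 7.00e-22). All 3 stood apart from IFNg in every library.

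The core enzymes rose by less, from higher levels. Gapdh had 2097, 2398 and 2570 RPKM at 8 h, against 1058, 1172 and 1349 RPKM with IFNg (log2 fold change 0.97, limma adjusted p = 1.47e-15). Ldha had 568, 606 and 662 RPKM at 8 h, against 151, 171 and 204 RPKM (1.79, adjusted p = 1.61e-19). Tpi1 had 514, 552 and 584 RPKM at 8 h, against 123, 145 and 185 RPKM (1.92, adjusted p = 2.78e-20). Pgam1 (1.71), Pgk1 (1.64), Aldoa (0.69), Eno1 (0.69) and Pkm (0.47) completed the chain, all of them higher. Among the first steps, Pfkl rose by 2.16 and Hk2 by 1.72.

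The 4 members lower at 8 h were Pfkm (-1.42), Hk3 (-0.81), Slc2a3 (-0.56) and Aldoc (-0.55). Pfkm had 1.51, 1.82 and 3.19 RPKM at 8 h, against 6.01, 6.86 and 8.58 RPKM with IFNg. Hk3 had 161, 234 and 253 RPKM at 8 h, against 371, 382 and 428 RPKM. Slc2a3 had 0.238, 0.276 and 0.406 RPKM at 8 h, against 0.769, 0.885 and 1.14 RPKM, and turned to 0.037 in a fit with gene length. The first 2 did not overlap, nor did Slc2a3.

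Since the 4 h and 8 h libraries of the constructs shared a run, the step between those times could be tested within it. Of 33 members, 26 were higher and 2 lower at 8 h than at 4 h (64% of all genes, 48.9% higher and 15.1% lower), and the median was 1.20 over the members and 0.22 over all genes. Egln3 (3.22), Bnip3 (2.77), Vegfa (2.71) and Ndrg1 (2.55) led, with limma adjusted p at most 1.42e-16. Ldha rose by 1.61 and Gapdh by 1.14, while Hif1a, at 112 to 154 RPKM by 4 h, was at 0.14 (adjusted p = 0.253). Pfkp fell by 0.42 and Pfkm by 0.30. Hif1a had thus reached its level by 4 h and Egln3 had not. In mock, 4 h and 1 h shared a run, and 13 members were higher and 10 lower at 4 h (70.3% of all genes), with Hif1a at 1.83, Eno2 at 1.62, Pfkfb3 at 1.53, Hk2 at 1.37 and Slc2a1 at 1.18. Vegfa had 5.23 and 5.54 RPKM in mock at 4 h, against 49.2 and 46.8 RPKM at 1 h (-2.94), and Ndrg1 (-1.65), Gpi1 (-1.20) and Slc2a3 (-0.94) fell as well. Median-of-ratios scaling shifts all genes by a median of -0.24 and 0.53 in these comparisons, and the split from 1 to 4 h was then 21 higher and 4 lower.

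The markers of dividing cells summed to 34.4 to 59.3 RPKM untreated, 16.1 to 29.2 RPKM with IFNg, 23.9 to 50.8 RPKM at 1 h, 11.3 to 19.3 RPKM at 4 h and 6.80 to 10.5 RPKM at 8 h. Those of macrophages summed to 1137 to 1498 RPKM at 8 h and 2601 to 2936 RPKM untreated. Their part in these results was not tested.

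**Figure D5:**
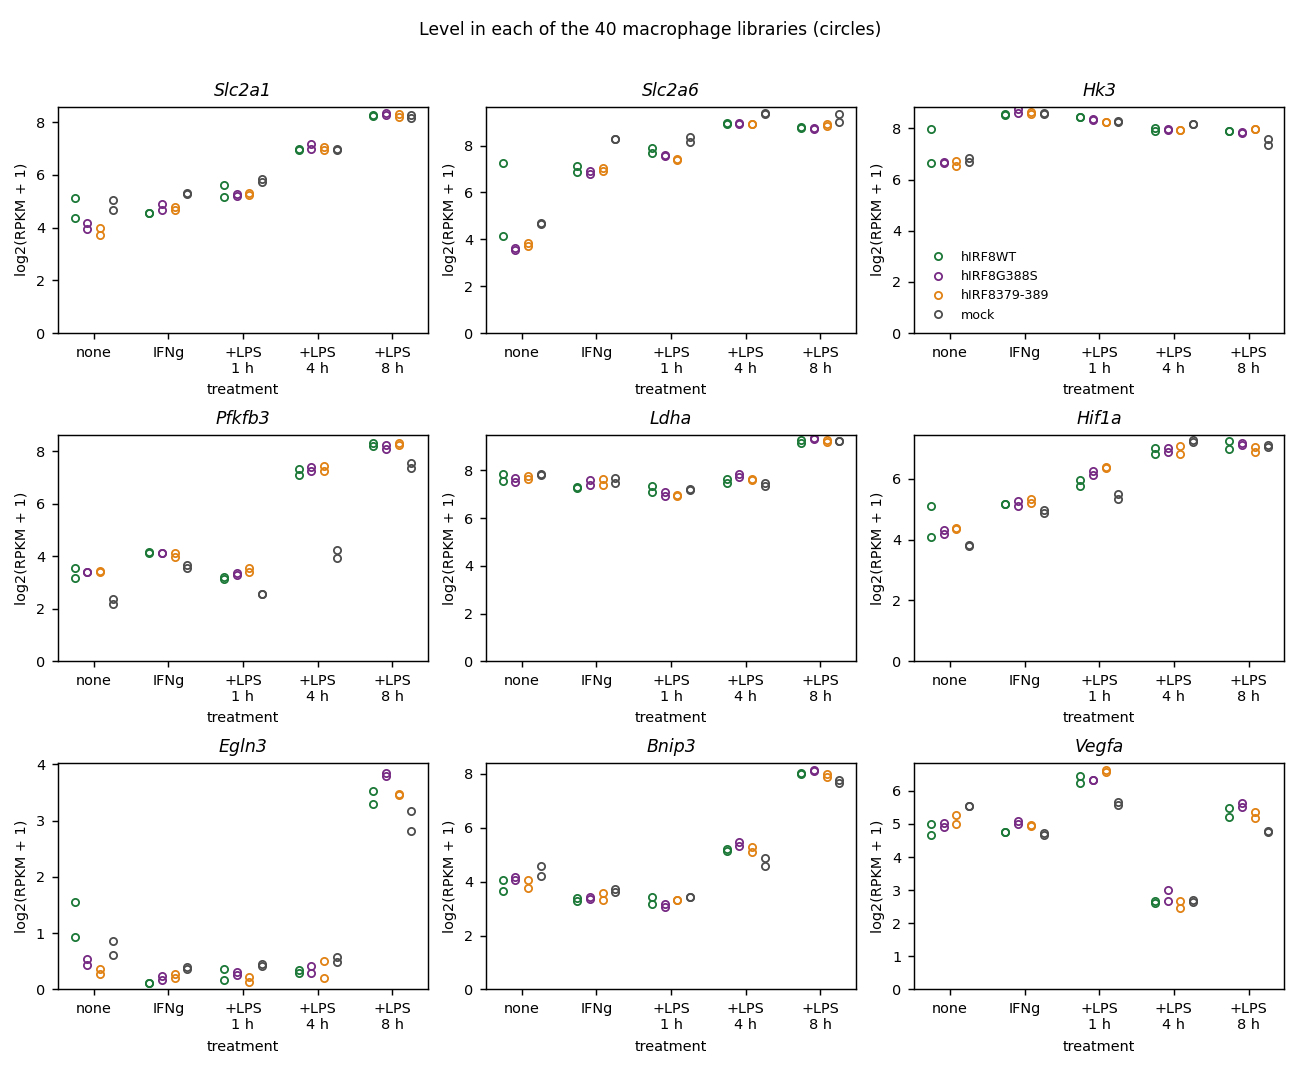
Log2(RPKM + 1) of 9 members in each of the 40 macrophage libraries (circles), by treatment on the horizontal axis and genotype label in colour. Slc2a1 and Hif1a climb from IFNg to 4 h, Egln3 and Ldha stand apart at 8 h alone, and Vegfa is highest at 1 h and lowest at 4 h. The high hIRF8WT circle of Slc2a6, Hk3 and Hif1a without treatment is the shallow library, and the low grey circles of Pfkfb3 at 4 h are mock.

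Outside the list at 8 h, 14 of 21 other hypoxia genes were higher and 6 lower against IFNg, with Ier3 at 5.27 and Pfkfb4, a relative of Pfkfb3, at -2.21. In the other lists more genes were lower than higher, as in the whole table, where 66% were lower and 19.2% higher. Of 7 pentose phosphate genes 1 was higher and 6 lower (Tkt -1.11, G6pdx -0.86, Pgls -1.53), and of 11 pyruvate and lactate genes 3 were higher and 8 lower (Dlat -1.74, Pdk2 -1.95, Pdha1 -1.18). Of 9 sugar phosphate genes 3 were higher and 6 lower, with Gys1, glycogen synthase, at 2.75 and Pgm2 at 2.40. Between 4 h and 8 h within the run, 15 of 21 other hypoxia genes were higher and 0 lower by limma (16 and 0 at an unadjusted p under 0.05), Hmox1 (4.16), Bnip3l (1.88) and Vhl (1.56) first by adjusted p. Of all genes tested, 48.9% were higher and 15.1% lower in that step.

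Over all treatments, the largest difference between the constructs and mock was in Pfkfb3. These comparisons are means over all treatments, and runs enter them. At 4 h all constructs were in another run than mock, and with IFNg hIRF8379-389 was. Of 33 members, 6 were higher and 12 lower with hIRF8379-389 (38.3% of all genes), 7 higher and 8 lower with hIRF8G388S (35.9%) and 6 higher and 9 lower with hIRF8WT (35.7%). Without the shallow library the last count was 9 higher and 11 lower, with only the 2 labels in the fit it was 9 members in all, and under median-of-ratios scaling hIRF8G388S had 5 higher and 11 lower. Pfkfb3 had 7.91 to 10.7 RPKM with the constructs against 3.57 and 4.22 RPKM in mock untreated, and 137 to 174 RPKM against 14.2 and 17.9 RPKM in mock at 4 h. At 8 h it had 272 to 318 RPKM with the constructs and 164 and 185 RPKM in mock. It rose by 1.31, 1.26 and 1.23 on the log2 scale with hIRF8379-389, hIRF8G388S and hIRF8WT, without overlap at any of these times, but the mock libraries of 4 h came from another run than those of the constructs, so label and run cannot be told apart at 4 h.

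Pfkp rose as well (0.73, 0.65 and 0.66), with 49.4 to 60.8 RPKM with the constructs and 30.7 and 34.3 RPKM in mock at 8 h. Hif1a rose by 0.30, 0.25 and 0.25, the last of which was 0.15 without the shallow library (limma adjusted p = 0.013). Vegfa rose with hIRF8379-389 (0.24) and hIRF8G388S (0.29), and Pdk1 with hIRF8WT (0.19). Eno2 fell by 0.89, 0.75 and 0.82, Pfkl by 0.49, 0.39 and 0.42 and Slc2a1 by 0.41, 0.33 and 0.25 (limma adjusted p for Slc2a1 at most 0.0107), and Slc16a3 by 0.36 with hIRF8WT. The highest group of Eno2 was mock at 4 h, at a mean of 5.0 RPKM, where label and run cannot be told apart. Slc2a6 had 111 to 131 RPKM with hIRF8379-389 and hIRF8G388S, against 312 and 309 RPKM in mock with IFNg, and over all treatments fell by 0.75 and 0.81. With IFNg, hIRF8G388S shared its run with mock and hIRF8379-389 did not. With hIRF8WT, Slc2a6 was at -0.30 (limma adjusted p = 0.279), and at -0.61 without the shallow library (adjusted p = 3.07e-11). Ldha did not pass with any construct.

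Where the response itself was compared, 9 members differed between hIRF8WT and mock at 8 h of LPS against IFNg, 8 with a larger rise in hIRF8WT (8.69% of all genes): Pgam1 (0.89), Slc2a1 (0.78), Slc16a3 (0.72), Egln3 (0.67), Bnip3 (0.63), Pkm (0.55), P4ha1 (0.52) and Pfkl (0.44). Pdk1 differed the other way (-0.66). Leaving out any one of the 8 libraries lowers this count to 3 to 6, and with only these groups in the fit it was 15. The response to IFNg differed for 8 members (25.5% of all genes), 4 in each direction, and rests on the shallow library. With only these groups in the fit 0 passed by limma (2 above and 2 below 0 at an unadjusted p under 0.05). Without the shallow library, 5 differences of hIRF8WT less mock were above 0 (Ndrg1, Vegfa, Pfkp, Slc2a3 and Pdk1) and 2 below 0 (13.3% of all genes), and with it but under median-of-ratios scaling 3 and 9. Above 0 is not always a larger change: Slc2a3 fell with IFNg, and its difference of 0.46 without that library is a smaller fall in hIRF8WT. Slc2a6 was at -2.32 with it and at -0.76 without it (limma adjusted p = 0.00129), and P4ha1 at -0.92 and -0.88.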

How the data were processed

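Total RNA of 90 libraries in 38 groups was used, grouped and numbered by their titles. The deposited values are RPKM of 24543 genes, which the authors obtained with TopHat on mm10 and with Partek, per the file headers, by dividing the reads of a gene by its length and by the library's M alignments. Without saying what each did, the submitters' processing notes name deepTools, Partek, TopHat2 2.1.0, CASAVA 1.8.4 and bcl2fastq 2.17.1. Which annotation was used is not given in these sources. RPKM shares out a library's reads, so transcripts that take a large share lower the others. Counts were not used, so no counting interval is given.

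In each experiment (17, 33 and 40 libraries, with 15.6 to 79.8, 15.7 to 122 and 0.218 to 101 M alignments), a gene was kept where 2 or more libraries had 1 RPKM or more. A model with 1 mean per group was fitted to log2(RPKM + 1) over all of them (11530, 11374 and 11237 genes) in R 4.3.3 by limma 3.58.1 (eBayes with a mean-variance trend). Tests were two-sided, with Benjamini-Hochberg adjustment over all genes of a comparison and a threshold of 0.05. Fold changes on this scale understate changes of low genes. There were 33 comparisons and 2 added after seeing the data. The procedure was tested on simulated data.

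The members and all lists were chosen with earlier results of these data known. The text names up to 4 members with the largest rises and up to 4 with the largest falls that passed in each comparison, Hif1a, Slc2a1, Ldha and Gapdh, up to 3 genes of other lists by adjusted p, and members that complete a step of the pathway. No 2 libraries were identical, and all replicate pairs that were compared differed by more than counting noise. The pair with the shallow library had too few genes with enough reads and was not compared. Same-numbered libraries deviated together (every correlation over 0.1, 3 pairs) in hIRF8379-389 against mock at day 0 (0.41, 0.33 and 0.61) and day 4 (0.35, 0.19 and 0.21) and in hIRF8G388S against hIRF8WT at day 0 (0.14, 0.18 and 0.19). The highest correlations of all were in KO against WT at day 4, with 2 shared numbers (0.87 and 0.9). The labels give no meaning to the numbers. Alternatives were a pseudocount of 0.1, no filter, median-of-ratios scaling, a gene length trend, no mean-variance trend, the groups of a comparison alone, a replicate block, and each library left out. One gene of the hypoxia list is not reported here.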

Additional observations from a re-analysis of the deposited data

Results flagged for a closer look

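Each result here is a difference between the responses of groups, tested by an interaction term in limma with Benjamini-Hochberg adjustment. The change from day 0, in which RANKL and time in culture cannot be told apart, differed between KO and WT for 16 members at day 4 and 21 at day 8. These differences share the day 0 libraries with the day 0 comparison of KO and WT. At day 4 these differences were 1.79 for Vegfa and 0.65 for Pfkm, and -3.27 for Hk3, -1.84 for Pkm, -1.76 for Ldha and -1.68 for Pgk1. At day 8 they were 1.14 for Vegfa and 0.88 for Bnip3, and -2.37 for Hk3, -1.97 for Pkm, -1.85 for Gapdh and -1.82 for Pgam1, all on the log2 scale.

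The response to 8 h of LPS differed between hIRF8WT and mock for 9 members, among them Pgam1 at 0.89, Slc2a1 at 0.78, Slc16a3 at 0.72, Egln3 at 0.67 and Pdk1 at -0.66.

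The response to IFNg differed between hIRF8WT and mock for 8 members: Ndrg1 at 1.15, Egln1 at 1.03, Vegfa at 0.78, Slc2a3 at 0.44, Slc2a6 at -2.32, P4ha1 at -0.92, Egln3 at -0.75 and Pfkfb3 at -0.53. These rest on the library at 0.218 M alignments. Without it, Ndrg1 was at 0.88, Vegfa at 0.62, Slc2a3 at 0.46, Slc2a6 at -0.76 and P4ha1 at -0.88, and Egln1 (0.29, adjusted p = 0.362), Egln3 (-0.45, 0.0961) and Pfkfb3 (-0.33, 0.183) no longer passed.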

How the results depend on the processing

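The 249 named member results counted here are the up to 4 largest rises and up to 4 largest falls that passed in each comparison. Of their 1852 alternative values, 1787 kept direction and call, 62 lost the call and 3 changed direction. All 3 were in a fit with gene length: Pfkp with hIRF8G388S (-0.079) and with hIRF8379-389 (-0.16) against mock at day 8, and Slc2a3 at 8 h of LPS (0.037). Members that passed with smaller changes are not counted here, and several of them changed direction under median-of-ratios scaling, as given above. Leaving out a library ended 121 of 2200 values and reversed 0.

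Counts of members past the threshold moved by more than 1.5 times in few cases. With only the groups of a comparison in the fit, the counts were 0 for KO against WT at day 4 (6 with all groups), 14 for hIRF8379-389 against mock at day 0 (26), 25 for hIRF8G388S against hIRF8WT at day 4 (12), 6 for mock day 8 against day 0 (19), 9 for hIRF8WT against mock in macrophages (15), and 0 and 15 for the hIRF8WT response to IFNg and to 8 h of LPS less that of mock (8 and 9). That response to LPS gave 14 under median-of-ratios scaling, and that to IFNg 13 with gene length. Without replicate 3 of both groups at day 4 and KO replicates 2 and 3 at day 8, an alternative chosen after seeing the data, the counts were 12 and 23 for KO against WT at days 4 and 8 and 25 for the difference of courses at day 4. The cause was not tested.

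Leaving out 1 library at a time gave these ranges. KO against WT gave 17 to 18 at day 0, 3 to 8 at day 4 and 4 to 12 at day 8, WT gave 8 to 17 at day 4 and 21 to 23 at day 8, KO 25 to 28 and 17 to 24, and the difference of courses 15 to 18 and 20 to 22. Against mock at days 0, 4 and 8, hIRF8379-389 gave 24 to 26, 10 to 13 and 13 to 16, hIRF8G388S 21 to 25, 12 to 13 and 12 to 14, and hIRF8WT 18 to 23, 9 to 12 and 8 to 11. Against hIRF8WT at days 0 and 4, hIRF8379-389 gave 0 to 4 and 8 to 11, and hIRF8G388S 0 to 5 and 5 to 10. Mock gave 16 to 22 at day 4 and 15 to 19 at day 8. In macrophages IFNg gave 29 to 31, LPS at 1, 4 and 8 h 19 to 23, 30 to 32 and 32 to 33, 8 h against 4 h 27 to 29, 4 h against 1 h 19 to 22, and hIRF8379-389, hIRF8G388S and hIRF8WT against mock 16 to 20, 13 to 17 and 12 to 20. The hIRF8WT response less that of mock gave 4 to 19 for IFNg, highest without untreated hIRF8WT replicate 2, and 3 to 6 for LPS.

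The replicate number as a block moved no count by more than 1.5 times (23 against 24 for KO and WT at day 0, 9 against 8 at day 8). This block is 1 effect per replicate number, shared by all groups of an experiment. It does not model day 4 on its own, where same-numbered KO and WT libraries correlated at 0.87 and 0.9, so that pairing was not tested. With this block, 3 named calls were lost: Slc2a6 in KO vs WT, day 8 (adjusted p = 0.0502), Eno1 in hIRF8379-389 vs mock, day 8 (adjusted p = 0.067) and Egln3 in Macrophages, hIRF8WT response to 8 h LPS minus mock response (adjusted p = 0.0523). For hIRF8WT against mock at day 8 the numbers correlated at -0.29, and the crossed pairing gave 12 members, as without it.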
